A study of Sus scrofa with 20 samples.

Results

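Chemokines and their receptors were followed across pig biliary tree stem cells and sorted liver cells as a family of 47 genes out of the 25764 in the deposited table. The members were taken by symbol alone, as every gene named CCL, CXCL or CX3CL1 among the ligands, CCR, CXCR or CX3CR1 among the receptors and ACKR among the atypical receptors, with a number where the name carries one. They comprised 18 CC ligands, 10 CXC or CX3C ligands, 15 receptors and 4 atypical receptors. Poly(A) RNA was sequenced from 5 preparations of porcine biliary tree stem cells (pBTSCs) and from 15 preparations of sorted liver cells. The liver cells were labelled CD45-/EpCAM+ (n = 4), CD45-/EpCAM- (n = 2), CD45+ (n = 5), CD31+ (n = 2) and CD146+ (n = 2), where CD45 is a leukocyte antigen, EpCAM an epithelial one, CD31 an endothelial one and CD146 one of endothelial and perivascular cells. Each pBTSC preparation came from the gallbladder and extrahepatic ducts of 1 piglet, S2, S7 and S11 from H2B-GFP piglets and S15 and S20 from wild-type piglets. For its genetic studies the paper describes stem/progenitors picked by surface antigens and kept for hours in serum-free medium on low-attachment dishes. Organoids with early mesenchymal cells formed there, and which of these libraries had this step is not stated. H2B-GFP piglets have a fusion of histone H2B and a green fluorescent protein placed at beta-actin, so that nuclei of all tissues are labelled. The piglets were 1 day old, except that of S11, which was 2 days old. The labels give neither the donor nor the age, breed or line of the liver cells, and no treatment is named for any group.

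Chemokines are small secreted proteins that attract leukocytes along a gradient. They act through receptors that cross the membrane several times and are coupled to G proteins, and the CC, CXC and CX3C classes are named for the spacing of their first cysteines. Atypical receptors bind chemokines without G protein signalling and scavenge, transport or present them. In liver, Kupffer cells, sinusoidal endothelium, hepatocytes and bile duct cells make chemokines that place macrophages, neutrophils and lymphocytes, and the pair CXCL12 and CXCR4 retains progenitor cells in their niches.

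Libraries are named by the storage numbers in their labels, and values are listed in order of storage number within a group. Values are normalized counts, the authors' gene counts after scaling between libraries. They were not divided by gene length, so each gene was compared between libraries and not with other genes. The depth estimated from the lowest values was 801000 reads in S13 (CD45-/EpCAM+), 1570000 in S15 (pBTSC) and 455000 in S22 (CD146+), and 21200000 to 77800000 in the other 17 libraries, called deep here. A value of 0 allows up to 3 reads, which is 77.1 normalized counts in S13, 37.7 in S15, 156 in S22 and 0.680 to 4.28 elsewhere, for counting error only. By correlation across genes the liver libraries did not separate by their labelled sort, apart from S5 (CD45-/EpCAM-), which was closest to S14 of that sort. Among deep liver libraries, 12 pairs of different sorts with neighbouring storage numbers had a median Pearson correlation across genes of 0.994 (0.926 to 0.995), and 15 pairs of 1 sort from different runs of storage numbers one of 0.953 (0.935 to 0.984). The CD45-/EpCAM- library S5 correlated with S14, the other of that sort, at 0.954, with S4 and S3 of its own run at 0.942 and 0.926, and S14 with S12 of its run at 0.973. PTPRC, the gene of CD45, was 424, 1153, 2687, 1227 and 1777 in CD45+ cells and 450.1, 2460.1, 3027 and 1364 in CD45-/EpCAM+ cells. PECAM1, the gene of CD31, was 25291 and 20102 in CD31+ cells and 26681 and 19884 in the CD45+ libraries S18 and S23. The paper defines biliary tree stem cells as CD45- and EpCAM+. PTPRC in the pBTSC libraries was 971, 534, 777, 1455 and 2139.5. PECAM1 was 28048 to 36576 there and EPCAM 884 to 2075. Hepatocyte transcripts were high in every liver library, with ALB, the gene of albumin, at 513080 or more. Sorts are therefore named below as their labels name them. The mesenchymal marker COL1A1 was 129440 to 581220 in pBTSCs and 12015 to 48370 in liver. In these bulk samples fewer cells of a type and less RNA per cell cannot be told apart, and p-values measure the spread between these samples only.

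Across the 20 libraries, 44 of the 47 members reached 10 normalized counts in at least 2 libraries and were tested with 15576 genes in limma on log2(normalized count + 1). CCL17, CCL27 and CCR8 did not and stayed at or below 2.48, 0.756 and 5.75. A member was called at an adjusted p under 0.05 and a log2 fold change above 1 in size. CXCL2, CCL2, ACKR3, CXCL12, CXCL16 and CXCR4 were among the members above the limit of 3 reads in every library. CCL1, CCR3, CCR4, CCR6, CXCR3, CXCR5 and CXCR6, receptors of T and B lymphocytes or eosinophils and a T cell ligand, stayed at or under 70.5 in each library. CCL3L1, CXCL2 and CCL21 have near-identical copies in mammals and CCL3L1 neighbours CCL4, so their counts may share reads with a copy and are uncertain.

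**Figure D1:**
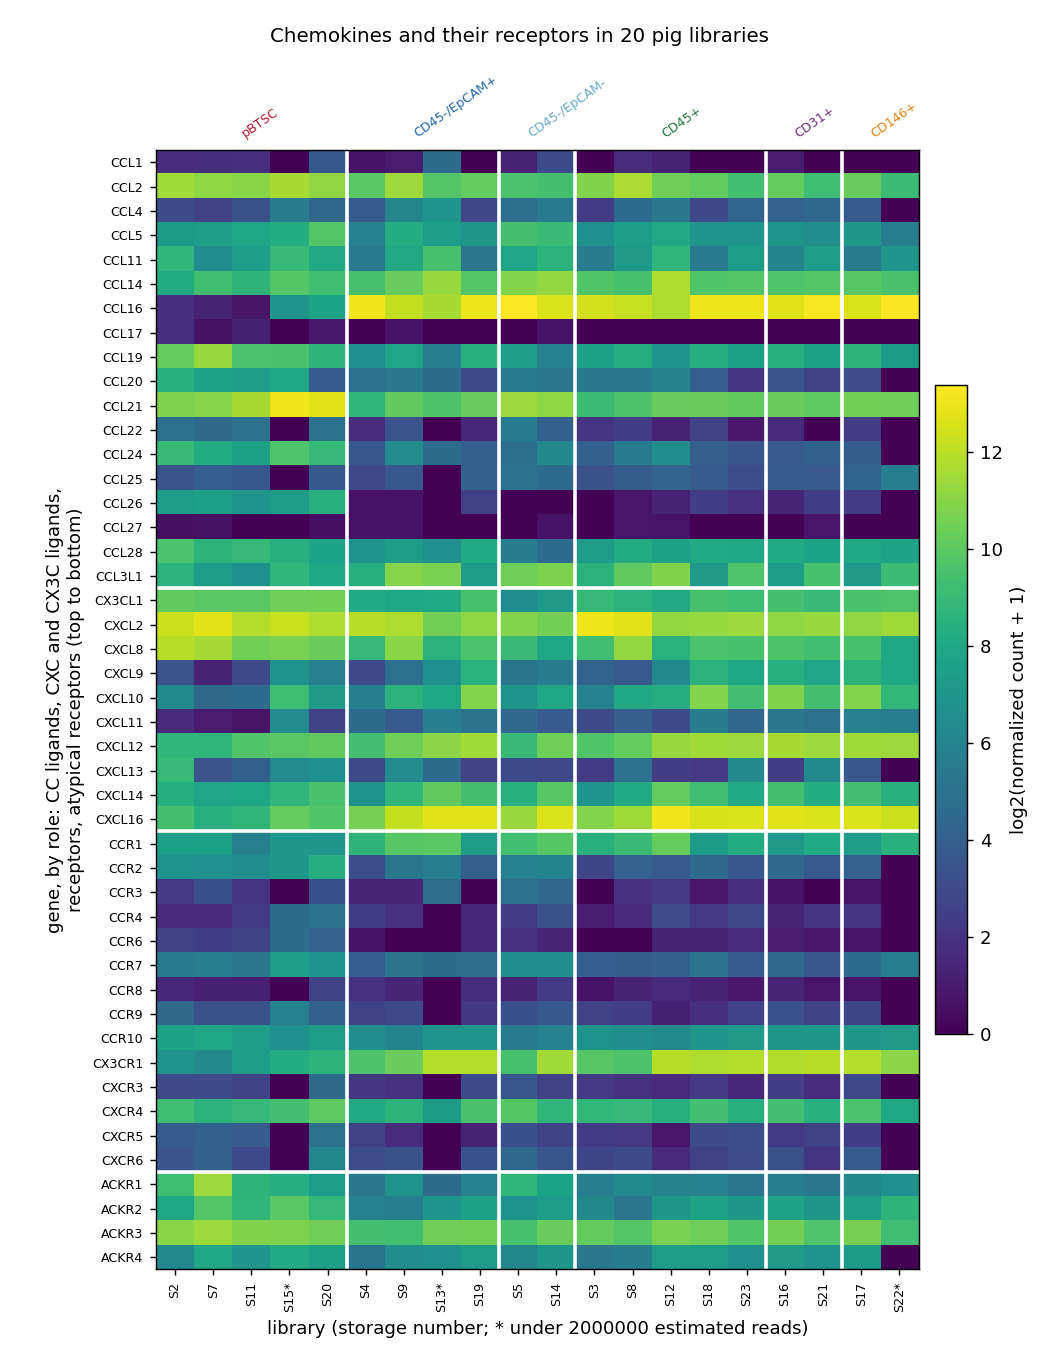
Heat map of log2(normalized count + 1) of the members described in the text (rows, by role) in 20 libraries (columns, by group and storage number), with white lines between roles and between groups and an asterisk on the 3 libraries under 2000000 reads. CCL16 is lower in the 5 pBTSC libraries than in the 15 liver libraries, and CCL26 higher.

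pBTSCs were set against liver CD45-/EpCAM+ cells first, the labelled epithelial fraction of the liver. pBTSCs had more transcript of the eotaxins CCL24 and CCL26, of the lymphoid homing ligands CCL19 and CCL21, of the mucosal ligands CCL20 and CCL28, of CX3CL1 and CXCL8, and of CCR2, CCR6, CCR7, CCR9, ACKR1 and ACKR2. They had less of CCL14, CCL16, CXCL16, CCR1 and CX3CR1. These were 14 members called higher and 5 called lower of 44, beside 14.8% and 10.3% of all 15576 genes. The median log2 fold change was 0.92 over the members and 0.08 over all genes. With libraries scaled to equal totals, where 43 members were tested, the split was 21 higher and 4 lower, and the median of all genes moved to 0.39.

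Against CD45-/EpCAM- cells, 10 members were called higher and 6 lower, beside 20% and 16.6% of all genes, and the median of members was 0.07 with 0.04 for all genes. Leaving out S14, 1 of the pair of CD45-/EpCAM- libraries, left 9 members called. Against CD45+ cells 13 were higher and 5 lower, beside 11% and 9.54% of all genes, with medians of 0.81 and 0.07. That split became 15 and 3 with equal totals, where the median of all genes was 0.32. Against CD31+ and CD146+ cells 14 were higher and 7 lower, beside 12.6% and 8.75%, with medians of 1.19 and 0.14. Leaving out S21, a CD31+ library, left 13 called there. S16 and S17 share a run of storage numbers, as do S21 and S22, and S16 and S17 correlated at 0.995. In all 4 comparisons the fit treats liver libraries of a shared run as independent, so its p-values may be too small. Without the 3 shallow libraries, 20, 20, 23 and 16 members were called in the 4 comparisons in this order. The calls of CCL14, CCL20, CCR1 and CXCL8 against CD45-/EpCAM+ cells, of CCL20 against CD45+ cells and of CCL2, CCL5, CCL19, CCL21, CCR9 and CXCL8 against CD31+ and CD146+ cells were lost without those libraries. CCR6, called against all groups but CD45-/EpCAM- cells, was not tested without them or within storage numbers under 15. Within storage numbers under 15, CCR2, CCR7 and CXCL8 against CD45-/EpCAM+ and CXCL8 and CXCL12 against CD45+ cells were not called. Within those from 15 up, CCL19, CCL20, CCR1, CCR9 and CXCL8 against CD45+ and CCL19, CCL20, CCR2, CCR6, CCR9, CXCL8, CXCL10 and CXCL11 against CD31+ and CD146+ cells were not. The 4 comparisons share the 5 pBTSC libraries. In the 17 deep libraries, 8 of 41 members tested, CCL19, CCL24, CCL26, CX3CL1, CCR2, CCR10, CXCR5 and ACKR2, were higher in all 4 pBTSC libraries than in all 13 liver libraries, where 16.3% of all genes were. Another 5, CCL14, CCL16, CXCL11, CXCL16 and CX3CR1, were lower in all 4, where 12.6% of all genes were. The other 28 overlapped. CCL26 and CXCR5 reached 10 in no liver library, so they entered this count only through pBTSCs.

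**Figure D2:**
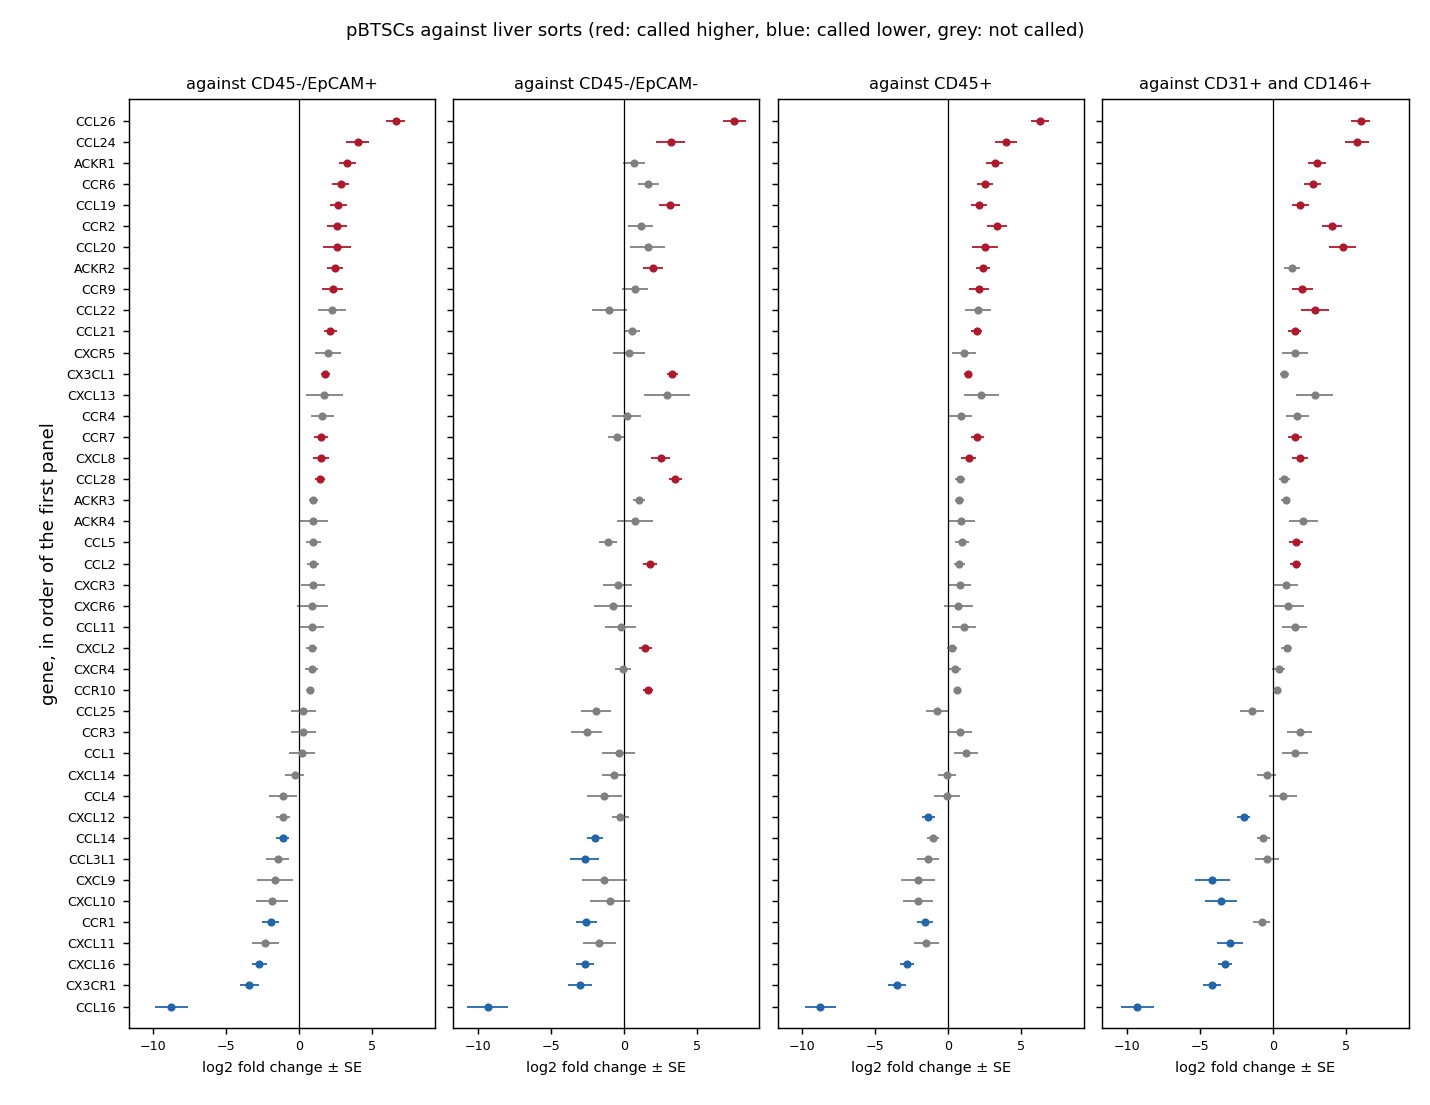
Log2 fold change ± SE from limma of the tested members described in the text in pBTSCs against the liver groups, 1 panel per comparison, with red for called higher, blue for called lower and grey for not called, in the order of the first panel. CCL26 is at the top with 6.59 and CCL16 at the bottom with -8.76 against CD45-/EpCAM+ cells.

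Among the CC ligands, CCL26, an eotaxin that attracts eosinophils through CCR3, showed the largest rise. It was 167, 189, 122, 163 and 344 in pBTSCs S2, S7, S11, S15 and S20. Liver CCL26 was 0.558, 0.567, 0 and 4.71 in CD45-/EpCAM+ cells, 0 and 0 in CD45-/EpCAM- cells, 0, 0.729, 1.43, 4.33 and 2.70 in CD45+ cells, 1.61 and 4.55 in CD31+ cells and 3.99 and 0 in CD146+ cells. All pBTSC values exceeded all liver values as listed, although a 0 in S22 allows up to 156. The log2 fold change was 6.59 ± 0.63 (adjusted p = 4.62e-07) against CD45-/EpCAM+, 6.26 ± 0.59 (adjusted p = 4.18e-07) against CD45+ and 5.995 ± 0.63 (adjusted p = 1.39e-06) against CD31+ and CD146+ cells. Both CD45-/EpCAM- libraries were at 0, so the median over deep pBTSCs was at least 41.6-fold higher, against 3 reads in the shallower of them. Its neighbour in the genome and the second eotaxin, CCL24, was 517, 302, 195, 829.5 and 502 in pBTSCs. CCL24 in liver was 11.2, 85.3, 25.7 and 16.01 in CD45-/EpCAM+ cells, 27.04 and 73.6 in CD45-/EpCAM- cells, 16.2, 46.6, 94.5, 15.9 and 10.8 in CD45+ cells, 12.4 and 16.8 in CD31+ cells and 14.7 and 0 in CD146+ cells. It was called higher in all 4 comparisons, at 3.99 ± 0.80 (adjusted p = 7.56e-04) against CD45-/EpCAM+ and 3.19 ± 0.99 (adjusted p = 0.0133) against CD45-/EpCAM- cells, and the groups did not overlap. Leaving out S5 ended the latter call (adjusted p = 0.178). CCL11, the third eotaxin, ranged from 88.7 to 527 in pBTSCs and from 40.3 to 727 in liver, overlapped throughout and was called in none of the 4 comparisons, with 0.86 ± 0.84 (adjusted p = 0.446) against CD45-/EpCAM+ cells.

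CCL19 and CCL21, which guide T cells and dendritic cells bearing CCR7 into lymphoid tissue, stood higher in pBTSCs. CCL19 was 1174, 2541, 782, 730.1 and 401 in pBTSCs. Liver CCL19 was 104, 227, 51.4 and 360.5 in CD45-/EpCAM+ cells, 175 and 60.7 in CD45-/EpCAM- cells, 199, 325, 124, 322 and 192 in CD45+ cells, 343 and 197 in CD31+ cells and 396 and 156 in CD146+ cells, so that no liver library reached the lowest pBTSC library. It was called in all 4 comparisons, from 1.86 ± 0.57 (adjusted p = 0.0206) against CD31+ and CD146+ to 3.15 ± 0.72 (adjusted p = 0.0017) against CD45-/EpCAM- cells. The call against CD31+ and CD146+ cells was lost without each of S7, S21 and S22 (adjusted p from 0.0583 to 0.11), and also without the 3 shallow libraries (adjusted p = 0.0704). CCL21, its neighbour in the genome, was 1743, 1983, 3154, 8883 and 6953 in pBTSCs. CCL21 in liver libraries was 446, 1124, 798 and 1237 in CD45-/EpCAM+ cells, 2717 and 2239 in CD45-/EpCAM- cells, 585, 806, 1255, 1308 and 1087 in CD45+ cells, 1274 and 1076 in CD31+ cells and 1549.7 and 1411 in CD146+ cells. The CD45-/EpCAM- libraries overlapped with pBTSCs, and the other liver libraries lay below all 5. Its log2 fold change was 2.13 ± 0.43 (adjusted p = 8.03e-04) against CD45-/EpCAM+, 1.93 ± 0.40 (adjusted p = 0.00133) against CD45+ and 1.48 ± 0.43 (adjusted p = 0.014) against CD31+ and CD146+ cells, the last lost without S21 (adjusted p = 0.0538). Against CD45-/EpCAM- cells it was 0.58 ± 0.53 (adjusted p = 0.386).

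CCL20, the mucosal ligand of CCR6 made by epithelium under inflammatory stimuli, was 366, 207, 166, 239 and 13.9 in pBTSCs. In liver CCL20 was 29.7, 40.1, 25.7 and 7.06 in CD45-/EpCAM+ cells, 45.6 and 39.6 in CD45-/EpCAM- cells, 41.5, 42.2, 62.8, 15.1 and 3.15 in CD45+ cells, 9.67 and 5.33 in CD31+ cells and 8.01 and 0 in CD146+ cells. The wild-type pBTSC library S20 lay among the liver libraries and the other 4 above all of them. Log2 fold changes were 2.57 ± 0.95 (adjusted p = 0.0403) against CD45-/EpCAM+, 2.50 ± 0.89 (adjusted p = 0.0389) against CD45+ and 4.77 ± 0.95 (adjusted p = 9.28e-04) against CD31+ and CD146+ cells. The first was lost without each of S2, S7, S11, S15, S4, S13 and S19 (adjusted p from 0.0581 to 0.113) and the second without each of S2, S7, S11, S15, S18 and S23 (adjusted p from 0.072 to 0.106). With the storage run as a block the first was 3.23 ± 0.49 (adjusted p = 1.16e-04). CCL28, a mucosal ligand of CCR10 and CCR3, was 772, 399.7, 506, 339 and 218 in pBTSCs. Liver CCL28 was 115, 166, 103 and 275 in CD45-/EpCAM+ cells, 49.8 and 24.5 in CD45-/EpCAM- cells, 164, 304, 201, 285 and 251 in CD45+ cells, 284 and 212 in CD31+ cells and 249.6 and 209 in CD146+ cells. The CD45-/EpCAM- libraries were the lowest of all 20, and the other sorts overlapped with pBTSCs. It was called at 3.51 ± 0.44 (adjusted p = 9.31e-06) against CD45-/EpCAM- and 1.42 ± 0.36 (adjusted p = 0.00438) against CD45-/EpCAM+ cells and was 0.80 ± 0.34 (adjusted p = 0.0767) against CD45+ cells, not called. The call against CD45-/EpCAM+ cells was lost with 1 mean per storage run of all liver libraries in their place and the storage run as a block, an alternative chosen after seeing the data.

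CCL16, a ligand made by hepatocytes that attracts monocytes and lymphocytes, was the member with the largest fall. It was 2.49, 1.55, 0.638, 126 and 216 in pBTSCs. Liver CCL16 was 8841, 4562, 3214 and 8315 in CD45-/EpCAM+ cells, 10647 and 6584 in CD45-/EpCAM- cells, 5657, 4741, 3447, 8331 and 8431 in CD45+ cells, 6749 and 9643 in CD31+ cells and 6599.9 and 10169 in CD146+ cells, and all 15 liver libraries lay above all 5 of pBTSCs. Against CD45-/EpCAM+ cells the log2 fold change was -8.76 ± 1.13 (adjusted p = 1.19e-05), and it was called in all 4 comparisons under all alternatives run. All 5 of the hepatocyte markers ALB, APOA1, TTR, FGB and SERPINA1 were called lower with it in all 4 comparisons, and their summed level was 25085 to 60085 in pBTSCs and 731260 to 2148100 in liver, with none at 0. Their part in the CCL16 result was not tested. CCL14, its neighbour in the genome and a plasma chemokine, was 303.1, 611, 420.4, 919 and 639 in pBTSCs and ranged from 713 to 3473 in liver. It was called lower against CD45-/EpCAM- cells, at -1.97 ± 0.54 (adjusted p = 0.00658), and against CD45-/EpCAM+ cells at -1.14 ± 0.44 (adjusted p = 0.0462). The former call was lost without S14 (adjusted p = 0.0547) and the latter without each of S2, S7, S11, S20, S9 and S13 (adjusted p from 0.0561 to 0.173).

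The monocyte attractant CCL2 was 2032 to 3109 in pBTSCs and 573 to 3292 in liver, and was called higher against CD45-/EpCAM- cells, 1.78 ± 0.50 (adjusted p = 0.00719), and against CD31+ and CD146+ cells, 1.55 ± 0.40 (adjusted p = 0.00679). The first call was lost without S5 (adjusted p = 0.0531) and the second without S22 (adjusted p = 0.0507). CCL5, a ligand made by T cells, was called only against CD31+ and CD146+ cells, 1.57 ± 0.51 (adjusted p = 0.0257), and lost without each of S20, S21 and S22 (adjusted p from 0.0633 to 0.136). CCL22, a ligand of CCR4 made by dendritic cells, was called there too, 2.88 ± 0.96 (adjusted p = 0.0315), and lost without each of S2, S7, S11, S20, S21 and S22 (adjusted p from 0.0685 to 0.151). The macrophage ligand CCL3L1 was called lower against CD45-/EpCAM- cells, -2.68 ± 1.004 (adjusted p = 0.0347), and lost without each of S7, S11, S5 and S14 (adjusted p from 0.059 to 0.141). CCL1, CCL4 and CCL25 were called in none of the 4 comparisons.

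**Figure D3:**
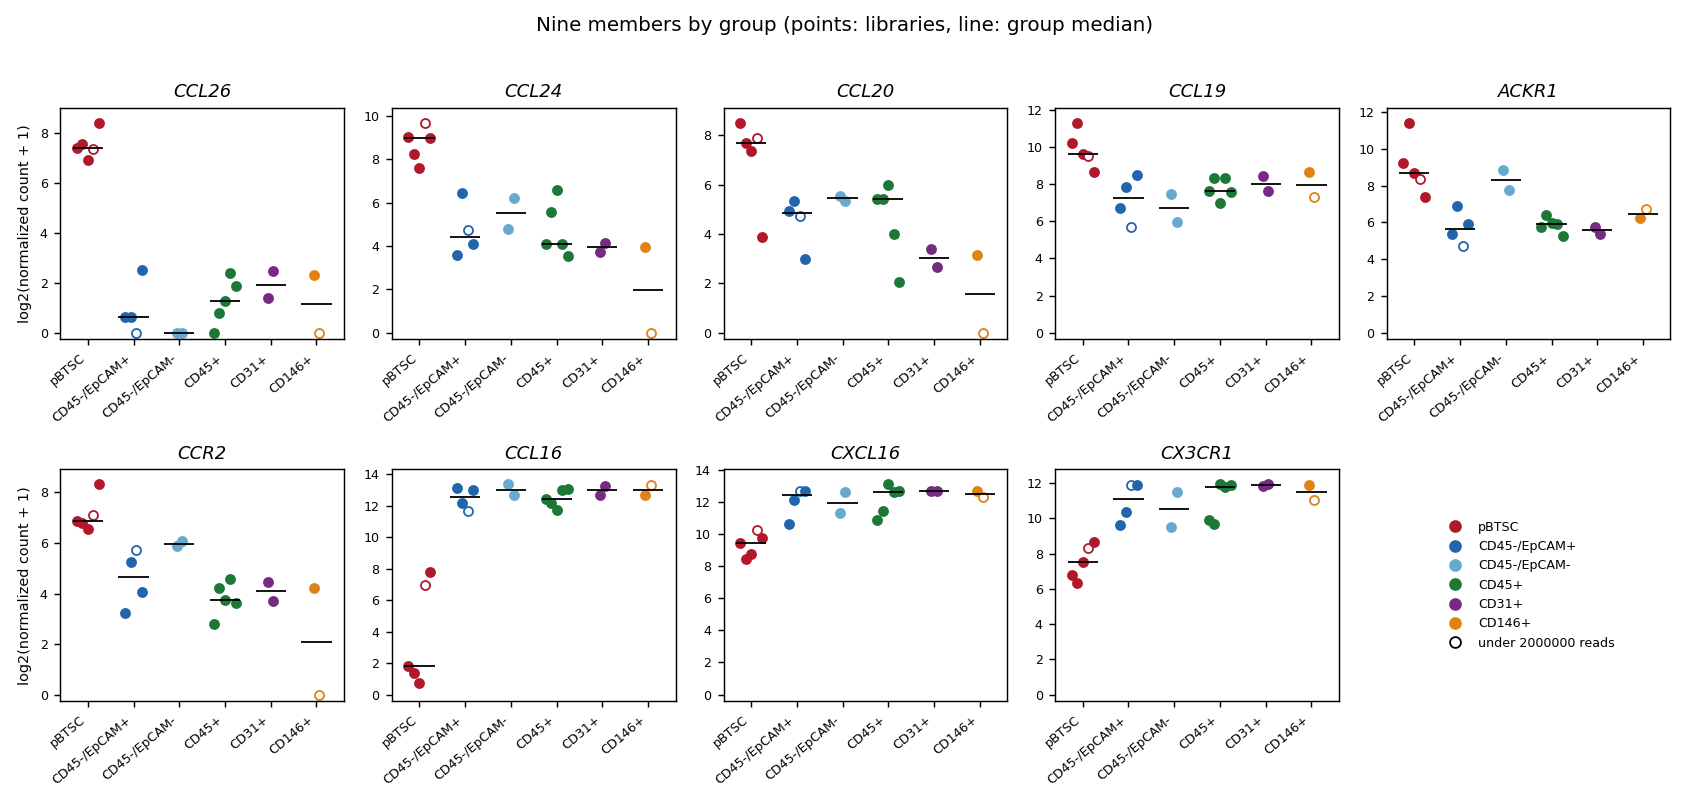
Log2(normalized count + 1) of CCL26, CCL24, CCL20, CCL19, ACKR1, CCR2, CCL16, CXCL16 and CX3CR1 in each of the 6 groups, with 1 point per library, open points for libraries under 2000000 reads and a line at the group median. CCL16 is 0.638 to 2.49 normalized counts in the 3 H2B-GFP pBTSC libraries, 126 and 216 in the wild-type ones and 3214 or more in liver.

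Among the CXC and CX3C ligands, CX3CL1, a membrane-bound ligand that holds CX3CR1-bearing monocytes, was higher in pBTSCs and its receptor lower. CX3CL1 was 1109, 987, 1008, 1388 and 1452 in pBTSCs. Liver CX3CL1 was 287, 231, 281 and 718 in CD45-/EpCAM+ cells, 90.3 and 149.5 in CD45-/EpCAM- cells, 491, 388, 269, 705 and 601 in CD45+ cells, 679.6 and 543 in CD31+ cells and 741 and 823 in CD146+ cells, all below the pBTSC libraries. It was called against CD45-/EpCAM+ at 1.78 ± 0.31 (adjusted p = 2.30e-04), CD45-/EpCAM- at 3.32 ± 0.39 (adjusted p = 4.23e-06) and CD45+ cells at 1.33 ± 0.29 (adjusted p = 0.00195) and was 0.77 ± 0.31 (adjusted p = 0.0709) against CD31+ and CD146+ cells. CXCL16, a scavenger receptor and ligand of CXCR6 carried by macrophages and sinusoidal endothelium, was 682, 345, 433, 1209.5 and 861 in pBTSCs. In liver, CXCL16 was 1609, 4465, 6661 and 6652 in CD45-/EpCAM+ cells, 2528 and 6223 in CD45-/EpCAM- cells, 1915, 2791, 8808, 6175 and 6595 in CD45+ cells, 6653 and 6583 in CD31+ cells and 6555 and 5116 in CD146+ cells. All 15 were higher than all pBTSC libraries, with -2.72 ± 0.50 (adjusted p = 3.57e-04) against CD45-/EpCAM+ and -3.27 ± 0.50 (adjusted p = 7.61e-05) against CD31+ and CD146+ cells. Against CD45-/EpCAM- cells the change of -2.63 ± 0.62 (adjusted p = 0.00226) was no longer called without S14 (adjusted p = 0.054).

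CXCL12, the niche ligand of CXCR4, was 454, 432, 862, 985 and 1109 in pBTSCs. Liver CXCL12 was 662, 1381, 2105 and 2919 in CD45-/EpCAM+ cells, 519 and 1369 in CD45-/EpCAM- cells, 843, 1201, 2586, 2907 and 2723 in CD45+ cells, 3204 and 2734 in CD31+ cells and 2792 and 2758 in CD146+ cells. Liver libraries S3, S4 and S5 lay among pBTSCs and the other 12 above all of them. The log2 fold change was -2.005 ± 0.46 (adjusted p = 0.00294) against CD31+ and CD146+ and -1.36 ± 0.43 (adjusted p = 0.0218) against CD45+ cells, the latter lost without each of S2, S7, S12, S18 and S23 (adjusted p from 0.0528 to 0.0597). Against CD45-/EpCAM+ cells it was -1.11 ± 0.46 (adjusted p = 0.0648), not called, but -1.25 ± 0.14 (adjusted p = 8.58e-06) with the storage run as a block. CXCR4, its receptor on leukocytes and progenitor cells, which the study counts among the markers of biliary tree stem cells, was 599, 389, 489, 666 and 1066 in pBTSCs. CXCR4 in liver was 279, 403, 154 and 732 in CD45-/EpCAM+ cells, 925 and 426 in CD45-/EpCAM- cells, 469, 491, 342, 664 and 339.8 in CD45+ cells, 668 and 345 in CD31+ cells and 759.6 and 261 in CD146+ cells. The groups overlapped and no comparison was called, from -0.05 ± 0.54 (adjusted p = 0.943) against CD45-/EpCAM- to 0.85 ± 0.43 (adjusted p = 0.129) against CD45-/EpCAM+ cells. ACKR3, which takes up CXCL12 and clears it, was 2037, 2689, 1845, 1772 and 1442 in pBTSCs. Liver ACKR3 was 684, 631, 1439.6 and 1477 in CD45-/EpCAM+ cells, 719 and 1245 in CD45-/EpCAM- cells, 1138, 898, 1671, 1381 and 858 in CD45+ cells, 1516 and 813 in CD31+ cells and 1590.5 and 626 in CD146+ cells. At 0.97 ± 0.33 (adjusted p = 0.0287) against CD45-/EpCAM+ cells it fell short of the fold threshold and was called without the shallow libraries (1.18, adjusted p = 0.0154) and with the storage run as a block (1.10, adjusted p = 0.00194). Against CD45-/EpCAM- cells, whose libraries lay below all pBTSC libraries, it was 1.02 ± 0.42 (adjusted p = 0.0505).

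CXCL9, CXCL10 and CXCL11, neighbours in the genome that interferon induces and that attract T cells through CXCR3, were called lower in pBTSCs than in CD31+ and CD146+ cells. CXCL10 was 84.7, 23.2, 24.8, 590.3 and 146 in pBTSCs. Liver CXCL10 was 54.4, 391, 231 and 1938 in CD45-/EpCAM+ cells, 119 and 237 in CD45-/EpCAM- cells, 57.1, 247, 327, 1882 and 672 in CD45+ cells, 1836 and 678 in CD31+ cells and 1886 and 469.6 in CD146+ cells. The 8 liver libraries S3 to S14 and S22 overlapped with pBTSCs, and the other 6 lay above them. The log2 fold change was -3.58 ± 1.09 (adjusted p = 0.0196) against CD31+ and CD146+ cells, lost without each of S7, S11, S16 and S17 (adjusted p from 0.0526 to 0.0739). Against CD45-/EpCAM+ cells it was -1.87 ± 1.09 (adjusted p = 0.189), and -2.08 ± 0.54 (adjusted p = 0.00643) with the storage run as a block. CXCL9 was 9.76, 1.55, 7.002, 113 and 55.6 in pBTSCs. CXCL9 in liver was 6.73, 28.8, 103 and 374 in CD45-/EpCAM+ cells, 35.7 and 48.5 in CD45-/EpCAM- cells, 18.04, 12.4, 77.97, 385 and 229.8 in CD45+ cells, 345 and 221 in CD31+ cells and 396 and 261 in CD146+ cells. All 7 libraries S16 to S23 lay above pBTSCs and the 8 libraries S3 to S14 overlapped with them. It was called against CD31+ and CD146+ cells, -4.14 ± 1.22 (adjusted p = 0.0162), lost without S16 (adjusted p = 0.0515), and with the block also against CD45-/EpCAM+ cells, -2.13 ± 0.53 (adjusted p = 0.00476), where it was -1.69 ± 1.22 (adjusted p = 0.294) without one. CXCL11 followed at -2.93 ± 0.91 (adjusted p = 0.0212) against CD31+ and CD146+ cells, lost without each of S2, S7, S11, S16, S21 and S22 (adjusted p from 0.0508 to 0.0612). All 4 CD31+ and CD146+ libraries lie among S16 to S23, where liver CXCL9 and CXCL10 were higher. With storage numbers under 15 or from 15 up as a term, none of the 3 ligands was called, CXCL9 at -1.96 ± 0.74 (adjusted p = 0.0562), CXCL10 at -1.77 ± 0.78 (adjusted p = 0.0949) and CXCL11 at -1.70 ± 0.80 (adjusted p = 0.118). CXCL11 was also lost with the storage run as a block, -1.77 ± 0.82 (adjusted p = 0.114). Within storage numbers from 15 up, CXCL10 was -1.80 ± 0.81 (adjusted p = 0.199) and CXCL11 -0.83 ± 1.09 (adjusted p = 0.638), both not called.

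The neutrophil attractants CXCL8 and CXCL2 were 1259.5 to 3999 and 3582 to 6737 in pBTSCs. CXCL8 was 233 to 2398 in liver and was called higher in all 4 comparisons, from 1.38 ± 0.52 (adjusted p = 0.0477) against CD45+ to 2.51 ± 0.68 (adjusted p = 0.00604) against CD45-/EpCAM- cells. Leaving out each of S2, S7, S11, S15, S3, S12, S18 and S23 (adjusted p from 0.0544 to 0.129) ended the former call, and leaving out S14 (adjusted p = 0.0965) the latter. Against CD45-/EpCAM+ cells, at 1.47 ± 0.55 (adjusted p = 0.0417), it was lost without each of S2, S7, S15, S4, S13 and S19 (adjusted p from 0.0509 to 0.134), and against CD31+ and CD146+ cells, at 1.88 ± 0.55 (adjusted p = 0.0146), without each of S21 and S22 (adjusted p from 0.0565 to 0.0922). CXCL2 was 1494 to 8517 in liver and was called only against CD45-/EpCAM- cells, 1.48 ± 0.46 (adjusted p = 0.0144), lost without each of S5 and S14 (adjusted p from 0.0647 to 0.0975). The B cell attractant CXCL13 ran from 9.55 to 498 within pBTSCs. CXCL13 and CXCL14, an epithelial ligand, were called in none of the 4 comparisons.

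Among the receptors, CX3CR1, carried by monocytes, macrophages and natural killer cells, was 110.5, 78.3, 180.2, 314 and 407 in pBTSCs. Liver CX3CR1 was 788, 1290.2, 3856 and 3799.7 in CD45-/EpCAM+ cells, 727 and 2901 in CD45-/EpCAM- cells, 951, 808, 3898, 3524 and 3821 in CD45+ cells, 3674 and 3922 in CD31+ cells and 3823 and 2139 in CD146+ cells, all above pBTSCs. Its log2 fold change ran from -2.99 ± 0.80 (adjusted p = 0.00539) against CD45-/EpCAM- to -4.17 ± 0.64 (adjusted p = 8.44e-05) against CD31+ and CD146+ cells, the former lost without S14 (adjusted p = 0.12). CCR1, a receptor of monocytes and neutrophils, was 184, 193, 56.6, 138 and 136 in pBTSCs. CCR1 in liver was 411, 942, 1003 and 167 in CD45-/EpCAM+ cells, 650.4 and 932 in CD45-/EpCAM- cells, 364, 515, 1207, 158 and 300.1 in CD45+ cells, 148 and 291 in CD31+ cells and 159.5 and 365 in CD146+ cells. S16 to S19 overlapped with pBTSCs and the other 11 liver libraries lay above them. It was called at -1.94 ± 0.58 (adjusted p = 0.0133) against CD45-/EpCAM+, -2.57 ± 0.72 (adjusted p = 0.00741) against CD45-/EpCAM- and -1.62 ± 0.55 (adjusted p = 0.0294) against CD45+ cells, and was -0.77 ± 0.58 (adjusted p = 0.336) against CD31+ and CD146+ cells. These calls were lost without each of S9 and S13 (adjusted p from 0.0504 to 0.0537), without S14 (adjusted p = 0.0635) and without each of S11, S8 and S12 (adjusted p from 0.0653 to 0.0879) in that order. All 6 of the macrophage markers CD68, CD163, CSF1R, MARCO, C1QA and VSIG4 were called lower in pBTSCs in all 4 comparisons, and 5 of 6 against CD45-/EpCAM+ and against CD31+ and CD146+ cells without the shallow libraries, with a summed level of 3628 to 9499.6 in pBTSCs and 26469 to 105840 in liver and none at 0, and their part in the results on CX3CR1, CCR1 and CXCL16 was not tested.

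CCR2, the monocyte receptor of CCL2, moved the other way. It was 116, 109, 92.2, 138 and 321 in pBTSCs. Liver CCR2 was 8.41, 36.6, 51.4 and 15.5 in CD45-/EpCAM+ cells, 58.7 and 65.8 in CD45-/EpCAM- cells, 6.01, 17.5, 12.3, 23.03 and 11.3 in CD45+ cells, 20.95 and 12.2 in CD31+ cells and 17.4 and 0 in CD146+ cells, below every pBTSC library as listed, with the same limit on the 0 in S22. It was called against CD45-/EpCAM+, 2.57 ± 0.70 (adjusted p = 0.00788), CD45+, 3.34 ± 0.66 (adjusted p = 8.70e-04), and CD31+ and CD146+ cells, 4.03 ± 0.70 (adjusted p = 2.89e-04), and was 1.15 ± 0.88 (adjusted p = 0.29) against CD45-/EpCAM- cells.

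CCR6, the receptor of CCL20 on lymphocytes and dendritic cells, was 5.21, 4.65, 5.75, 25.2 and 17.8 in pBTSCs, where the value of S15 was under its limit of 3 reads. In liver CCR6 was 0.560, 0, 0 and 1.88 in CD45-/EpCAM+ cells, 2.84 and 1.67 in CD45-/EpCAM- cells, 0, 0, 1.44, 1.44 and 2.25 in CD45+ cells, 1.08 and 0.761 in CD31+ cells and 0.667 and 0 in CD146+ cells, below the pBTSC libraries as listed. CCR6 reached 10 only in pBTSCs S15 and S20, so it entered the test only through the group where it was high. Without S15, without S20 or without the shallow libraries it was not tested, and its p-values depend on that entry. It was called higher against CD45-/EpCAM+, 2.82 ± 0.59 (adjusted p = 0.00106), CD45+, 2.51 ± 0.55 (adjusted p = 0.00198), and CD31+ and CD146+ cells, 2.71 ± 0.59 (adjusted p = 0.0019). All 4 libraries of the last group were at or under 3 reads, and the median over deep pBTSCs was at least 2.40-fold higher, against that limit in the shallowest deep one. CCR9, the gut homing receptor of CCL25, was 23.4, 9.01, 8.91, 57.2 and 15.998 in pBTSCs. Liver CCR9 was 5.10, 6.85, 0 and 3.57 in CD45-/EpCAM+ cells, 8.79 and 11.8 in CD45-/EpCAM- cells, 5.27, 4.42, 1.27, 2.52 and 5.53 in CD45+ cells, 9.42 and 5.79 in CD31+ cells and 5.85 and 0 in CD146+ cells. S14 and S16 overlapped with pBTSCs. S14 was the only liver library in which CCR9 reached 10, so its entry to the test rested on pBTSCs too. It was called against the same 3 groups, with 2.29 ± 0.71 (adjusted p = 0.0164) against CD45-/EpCAM+ cells, lost without S13 (adjusted p = 0.0639). The call of 2.08 ± 0.67 (adjusted p = 0.0233) against CD45+ cells was lost without each of S2, S15 and S12 (adjusted p from 0.0512 to 0.0666), and that of 2.01 ± 0.71 (adjusted p = 0.0401) against CD31+ and CD146+ cells without each of S2, S15, S20, S16, S21 and S22 (adjusted p from 0.0586 to 0.229). CCR7, the receptor of CCL19 and CCL21, was 43.3, 51.1, 37.5, 176 and 119.8 in pBTSCs and 11.4 to 101 in liver. It was called at 1.97 ± 0.45 (adjusted p = 0.00246) against CD45+, 1.49 ± 0.47 (adjusted p = 0.0187) against CD45-/EpCAM+ and 1.52 ± 0.47 (adjusted p = 0.0212) against CD31+ and CD146+ cells, and lost without each of S20 and S4 (adjusted p from 0.0502 to 0.0652) in the second and without each of S15, S20, S21 and S17 (adjusted p from 0.0533 to 0.103) in the third. CCR10, the receptor of CCL28, was called only against CD45-/EpCAM- cells, 1.65 ± 0.34 (adjusted p = 8.22e-04), with 104 to 238 in pBTSCs and 46.7 and 60.2 there. CCR3, CCR4, CXCR3, CXCR5 and CXCR6 were called in none of the 4 comparisons.

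Of the 6 T and NK cell markers (CD3E, CD3D, CD2, CD247, NKG7 and GZMB), 2 were called higher and 1 lower against CD45-/EpCAM+ cells, 0 and 1 against CD45-/EpCAM- cells, and 4 and 0 against both CD45+ and CD31+ and CD146+ cells, where the shares of all genes are those given above. Without the shallow libraries these were 4 and 0, 0 and 1, 4 and 0, and 2 and 0 in the same order of groups. Their summed level was 379.8 to 453 in H2B-GFP pBTSCs, 620.4 to 1348 in wild-type pBTSCs and 104 to 1208 in liver. S22 held CD3E, CD3D, CD2, CD247 and GZMB at 0, and S13 held GZMB at 0. The B cell marker CD79B was 3.35 ± 0.82 (adjusted p = 0.00388) against CD45-/EpCAM+ cells and 2.62 ± 0.82 (adjusted p = 0.0225) against CD31+ and CD146+ cells, called in both, and at 0 in S13 and S22. CD79A was called against CD31+ and CD146+ cells, 1.28 ± 0.26 (adjusted p = 0.0011), and MS4A1, at 0 in S13, S15 and S22, was called in none of the 4 comparisons. Of the 4 B cell markers tested, 1, 0, 0 and 2 were called higher in the same order of groups and 0 lower. Without the shallow libraries 2, 0, 3 and 2 were called higher and 0 lower. The part of these cells in the results on CCR6, CCR7, CCR9 and CCL19 was not tested.

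The atypical receptors ACKR1 and ACKR2 were higher in pBTSCs. ACKR1, the Duffy antigen of venular endothelium and red cells that carries chemokines across vessels, was 605, 2747, 413, 327 and 164 in pBTSCs. Liver ACKR1 was 40.4, 116, 25.7 and 58.8 in CD45-/EpCAM+ cells, 452 and 218 in CD45-/EpCAM- cells, 52.3, 82.95, 62.1, 59.8 and 36.95 in CD45+ cells, 53.2 and 40.4 in CD31+ cells and 74.1 and 104 in CD146+ cells. The CD45-/EpCAM- libraries overlapped with pBTSCs and the other 13 liver libraries lay below all of them. It was called against CD45-/EpCAM+, 3.30 ± 0.60 (adjusted p = 3.67e-04), CD45+, 3.16 ± 0.57 (adjusted p = 3.64e-04), and CD31+ and CD146+ cells, 2.997 ± 0.60 (adjusted p = 0.00107), and was 0.72 ± 0.75 (adjusted p = 0.45) against CD45-/EpCAM- cells. Both erythroid markers tested, HBB and ALAS2, were also called higher against those 3 groups, and 1 of the pair against CD45-/EpCAM+ cells without the shallow libraries, with a summed level of 29177 to 128180 in pBTSCs, 185040 to 852290 in CD45-/EpCAM- cells and 2382 to 41912 in CD45-/EpCAM+ cells. Of the 6 endothelial markers, 2 were called higher against CD45-/EpCAM+ cells, VWF at 2.39 ± 0.28 (adjusted p = 3.78e-06) and PECAM1 at 1.29 ± 0.29 (adjusted p = 0.00203), and 2 lower, the sinusoidal STAB2 at -7.13 ± 0.83 (adjusted p = 3.67e-06) and LYVE1 at -1.80 ± 0.44 (adjusted p = 0.00388), with a median of -0.19. Their part in the ACKR1 result was not tested. ACKR2, a scavenger of inflammatory CC chemokines found on lymphatic endothelium, was 235, 885, 433, 995 and 475 in pBTSCs. In liver ACKR2 was 59.05, 54.4, 129 and 202 in CD45-/EpCAM+ cells, 112 and 160.2 in CD45-/EpCAM- cells, 75.8, 36.5, 136, 209 and 142 in CD45+ cells, 209 and 133 in CD31+ cells and 173 and 419 in CD146+ cells. S22 alone among liver libraries overlapped with pBTSCs. It was called against CD45-/EpCAM+, 2.46 ± 0.53 (adjusted p = 0.00152), CD45+, 2.37 ± 0.50 (adjusted p = 0.00153), and CD45-/EpCAM- cells, 1.98 ± 0.67 (adjusted p = 0.0206), the last lost without either of S5 and S14 (adjusted p from 0.0519 to 0.17), and was 1.32 ± 0.53 (adjusted p = 0.0701) against CD31+ and CD146+ cells. ACKR4, which scavenges CCL19, CCL21 and CCL25, overlapped between the groups and was called in none.

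Set beside their receptors, ligands differed in how the pair stood in pBTSCs against CD45-/EpCAM+ cells. CCL19 and CCL21 were called higher together with CCR7, and CCL20 together with CCR6, which entered the test only through its pBTSC values. CX3CL1 was called higher and CX3CR1 lower. CCL24, CCL26 and CCL28 were called higher while CCR3, at 0.26 ± 0.85 (adjusted p = 0.834), and CCR10, at 0.76 ± 0.27 (adjusted p = 0.035), were not called. The CCR3 values of the shallow S13 and S15, 26.04 and 0, lay under their limits of 3 reads. In the deep libraries CCR3 was 3.67, 8.64, 3.23 and 8.74 in pBTSCs and 1.70, 1.72 and 0 in CD45-/EpCAM+ cells. CCL26 also entered the test only through its pBTSC values. CXCL16 was called lower, with CXCR6 at 0.89 ± 1.04 (adjusted p = 0.532). CCR2 and CCR9 were called higher, with their ligands CCL2 at 0.92 ± 0.40 (adjusted p = 0.0772) and CCL25 at 0.29 ± 0.83 (adjusted p = 0.815).

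H2B-GFP pBTSCs (S2, S7 and S11) were compared with wild-type pBTSCs (S15 and S20) within the 5 pBTSC libraries, where 40 members were tested with 14912 genes. The comparison concerns whether piglet line or the run of storage numbers moves the family, and these and RNA quality cannot be told apart. CCL16 and CCL21 were lower in H2B-GFP pBTSCs. None of the 40 was called higher, beside 0.402% of all genes, and 3 were called lower, beside 1.37%. CCL16 was 2.49, 1.55 and 0.638 in H2B-GFP and 126 and 216 in wild-type pBTSCs, a log2 fold change of -6.08 ± 0.64 (adjusted p = 0.0135). It entered this fit only through the wild-type libraries, the side where it was high, and its p-value depends on that entry. CCL21 was 1743, 1983 and 3154 against 8883 and 6953, -1.82 ± 0.26 (adjusted p = 0.0316), and lost without each of S2, S7, S15 and S20 (adjusted p from 0.0512 to 0.196). The lines did not overlap for either. Without S15, 1 of the 2 wild-type libraries and a shallow one, 0 members were called, and CCL16 was then not tested. Without S20 it was not tested either. Of the 5 hepatocyte markers, ALB, TTR and FGB were called lower in H2B-GFP pBTSCs too, ALB at 376, 287 and 288 against 19832 and 25087, and the summed level of the list was 25085 to 28307 against 48025 to 60085. Of the 6 macrophage markers 2 were lower, with sums of 3628 to 4882 and 9189 to 9499.6, and 0 without S15. RNA integrity is listed as lower for the H2B-GFP preparations than for S20, and not listed for S15. The part of these in the result was not tested.

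**Figure D4:**
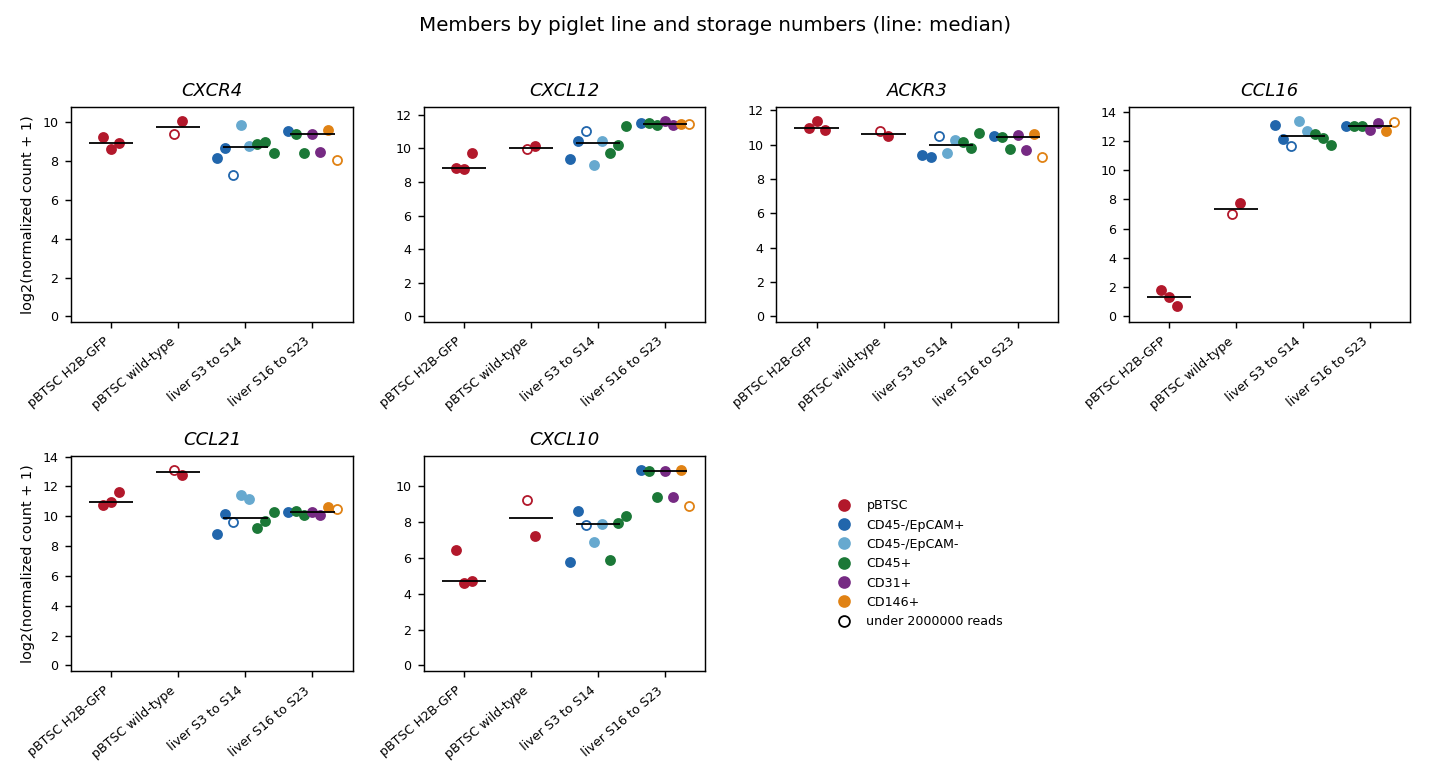
Log2(normalized count + 1) of CXCR4, CXCL12, ACKR3, CCL16, CCL21 and CXCL10 in H2B-GFP pBTSCs, wild-type pBTSCs, liver libraries S3 to S14 and liver libraries S16 to S23, with 1 point per library coloured by group, open points for libraries under 2000000 reads and a line at the median. CCL16 and CCL21 are lower in the 3 H2B-GFP than in the 2 wild-type pBTSC libraries.

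Within the liver, the members differed with the run of storage numbers. CXCL9 and CXCL10, the interferon-induced ligands, and CX3CL1 were lower in the libraries S3 to S14 than in S16 to S23, and CCL20 and CCR1 higher. The comparison used the CD45+ and CD45-/EpCAM+ libraries, with the sort as a term. Of 34 members tested, 2 were called higher and 3 lower, beside 2.17% and 2.93% of all 14655 genes. CXCL9 was 18.04, 6.73, 12.4, 28.8, 77.97 and 103 in S3, S4, S8, S9, S12 and S13 and 385, 374 and 229.8 in S18, S19 and S23, a log2 fold change of -3.55 ± 0.83 (adjusted p = 0.0298). CXCL10 was 57.1, 54.4, 247, 391, 327 and 231 against 1882, 1938 and 672, -3.04 ± 0.75 (adjusted p = 0.0348). CX3CL1 was 491, 287, 388, 231, 269 and 281 against 705, 718 and 601, -1.05 ± 0.22 (adjusted p = 0.0232). The 2 sets of libraries did not overlap for these ligands. CCL20 was 41.5, 29.7, 42.2, 40.1, 62.8 and 25.7 against 15.1, 7.06 and 3.15, 2.36 ± 0.48 (adjusted p = 0.0205). CCR1 was 364, 411, 515, 942, 1207 and 1003 against 158, 167 and 300.1, 1.73 ± 0.45 (adjusted p = 0.0405), and neither gene overlapped between the sets as listed, the CCL20 value of S13 being under its limit of 3 reads. Whether libraries of 1 run share a donor is not given in the labels. With 1 mean per run 0 members were called, and 0 were called without S8, S18, S19 or S23. Without S9 and without S3, 2 and 3 were called. All 4 neutrophil markers (CSF3R, S100A8, S100A9 and S100A12) were called higher in S3 to S14, with summed levels of 1302 to 61506 against 157 to 340.3 in all liver libraries, S100A12 and CSF3R being at 0 in S22. Both erythroid markers were higher as well, and their part in the results on CCL20 and CCR1 was not tested.

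**Figure D5:**
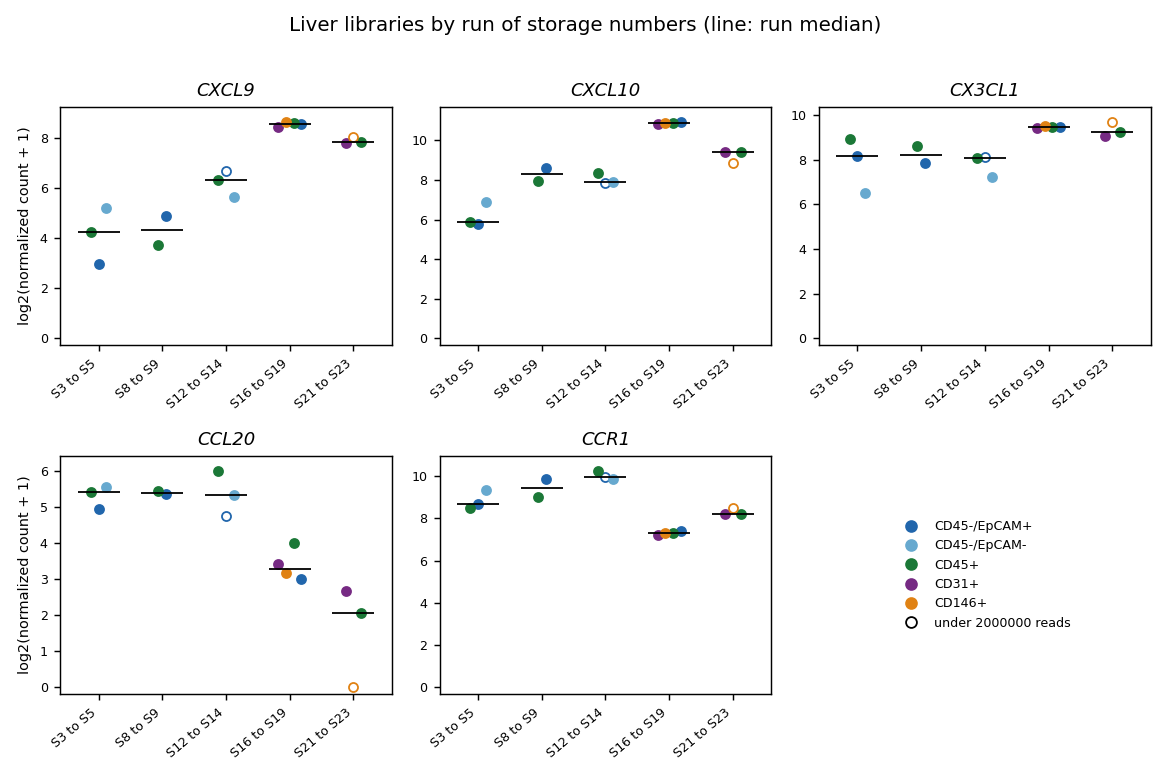
Log2(normalized count + 1) of CXCL9, CXCL10, CX3CL1, CCL20 and CCR1 in the 15 liver libraries, in 5 runs of neighbouring storage numbers, coloured by labelled sort, with open points for libraries under 2000000 reads and a line at the run median. Libraries S16 to S19, of 4 different sorts, lie together, with CXCL10 from 1836 to 1938 normalized counts.

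Libraries S16 to S19, labelled CD31+, CD146+, CD45+ and CD45-/EpCAM+, had nearly equal values, such as CXCL9 at 345 to 396, CX3CL1 at 679.6 to 741 and CCR1 at 148 to 167. S21 to S23, of 3 sorts, had CXCL9 at 221 to 261 and CXCL10 at 469.6 to 678. Over 44 members in the deep liver libraries, the run accounted for a median of 70.5% of the variance of log2 values and the sort for 36.1%, shares that overlap because the design is unbalanced. Over all genes these medians were 72.1% and 41.3%. The shares were not corrected for the number of runs or sorts, so labels without any effect would take a share too. The share of the run was the greater in 30 of 44 members (68.2%), and in 77.7% of all genes. CXCL10 (97.3% by run), CX3CR1 (96.9%), CXCL8 (96.5%) and CCL20 (94.4%) had the highest shares by run. CCL28 (86.3% by sort), CCR3 (82.6%), CCR7 (82.0%) and ACKR1 (80.6%) had the highest by sort, with the CD45-/EpCAM- libraries S5 and S14 lowest for CCL28 and highest for CCR7 and ACKR1. CCR3 in those libraries was 31.6 and 20.001, and at most 3.65 in the other deep liver libraries.

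No member was called in the contrasts run between liver sorts, and CD45-/EpCAM- cells were not tested against another liver sort. CD45+ against CD45-/EpCAM+ cells gave 0 calls among the 44 members, beside 0.0% of all genes called in limma, with 0 members and 214 genes at an unadjusted p under 0.05. The smallest p of a member was that of CCL28, 164, 304, 201, 285 and 251 in CD45+ and 115, 166, 103 and 275 in CD45-/EpCAM+ cells. With the storage run as a block, 0 genes were called again, and 1 member and 442 genes were at an unadjusted p under 0.05. That member was CXCL2, at 0.67 ± 0.23 (adjusted p = 1), where CCL28 was 0.70 ± 0.36 (adjusted p = 1). In the 4 pairs of these sorts with neighbouring numbers, S3 and S4, S8 and S9, S12 and S13, and S18 and S19, CCL20, CCL28 and CXCL2 were higher in CD45+ cells in 4 of 4 and CXCL13 was lower in 4 of 4. These 4 members were chosen after their values were seen. The share of all genes with 1 sign in all 4 pairs was not counted, so nothing about the members is concluded. S13 is shallow, and its CCL20 and CXCL13 values of 25.7 are those of 1 read. CD31+ and CD146+ against the CD45+ and CD45-/EpCAM+ libraries of S16 to S23 gave 0 calls among 33 members, beside 0.0% of all genes, with 0 members and 6 genes at an unadjusted p under 0.05.

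Of 12 related genes outside the family, 10 were tested, and 2 were called higher and 4 lower in pBTSCs against CD45-/EpCAM+ cells, beside the 14.8% and 10.3% of all genes. PPBP, a neutrophil-activating CXC ligand stored in platelets, fell most, at -5.51 ± 0.68 (adjusted p = 7.19e-06), from 190.3 to 622 in CD45-/EpCAM+ cells to 1.81 to 18.8 in pBTSCs. RARRES2, the gene of chemerin, fell too, at -1.66 ± 0.33 (adjusted p = 8.51e-04), and DPP4, a protease that trims chemokines, and CCRL2, a chemerin-presenting receptor, were the others called lower. XCL1, the lymphotactin of T and NK cells, rose at 2.29 ± 0.76 (adjusted p = 0.0236) and PITPNM3, a proposed receptor of CCL18, at 1.43 ± 0.40 (adjusted p = 0.00912). Of 20 genes of receptor signalling, 1 was called higher, RAC2 at 1.16 ± 0.34 (adjusted p = 0.0117), a leukocyte GTPase of migration, and 2 lower, GRK3 at -1.19 ± 0.37 (adjusted p = 0.0182) and ARRB2 at -1.18 ± 0.40 (adjusted p = 0.0272), which turn off and internalise receptors. The median of the 20 was 0.05. Without the shallow libraries 2 were called higher and 0 lower. Of 17 tested genes of inflammatory induction and adhesion, 3 were called higher and 2 lower. SELP, the endothelial P-selectin that slows leukocytes, rose at 3.21 ± 0.33 (adjusted p = 1.06e-06), IFNG, the inducer of CXCL9 to CXCL11, at 2.56 ± 0.67 (adjusted p = 0.00594) with no more than 27.8 in any library, and IL6 rose as well, while IL10, at -1.98 ± 0.76 (adjusted p = 0.0475), and IL18, at -1.60 ± 0.59 (adjusted p = 0.0409), were called lower. Without the shallow libraries 4 were higher and 0 lower. NFKB1, NFKBIA, TNFAIP3, ICAM1 and VCAM1 were not called. Against CD45-/EpCAM-, CD45+ and CD31+ and CD146+ cells in this order, the related genes gave 1, 1 and 2 called higher and 5, 4 and 4 lower, receptor signalling 4, 1 and 3 higher and 2, 1 and 0 lower, and inflammatory induction 2, 3 and 6 higher and 1, 1 and 0 lower. Without the shallow libraries receptor signalling gave 1 higher and related genes 1 higher and 3 lower against CD31+ and CD146+ cells, and against CD45+ cells related genes gave 2 higher and inflammatory induction 0 lower. Beside these stand the 20%, 11% and 12.6% of all genes called higher and 16.6%, 9.54% and 8.75% called lower. Of the other marker lists, 4 of 5 mesenchymal markers were called higher and 3 of 5 leukocyte markers lower, and 0 of 3 biliary markers and 0 of 4 neutrophil markers were called against CD45-/EpCAM+ cells. Without the shallow libraries 4 mesenchymal and 0 leukocyte markers were called there. The summed level of the mesenchymal markers was 346360 to 1372900 in pBTSCs, 32406 to 120800 in liver S3 to S14 and 77762 to 155000 in S16 to S23. Their part in the results on the members, such as CCL19, CCL21, CCL26, CCL2 and CXCL12, was not tested.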

How the data were processed

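Poly(A) RNA of 20 preparations was sequenced with a stranded mRNA kit. The submitters' processing notes name STAR, Salmon and DESeq2, and the genome build and annotation are not given in the sources used here. The deposited table holds the authors' normalized gene counts, a signal scaled between libraries. They are not raw counts, so depth was estimated from the lowest values. Values were taken as log2(normalized count + 1) for genes with at least 10 in at least 2 libraries of a fit and fitted by limma (version 3.58.1, R 4.3.3) with an intensity trend in the prior variance. Adjusted p-values are Benjamini-Hochberg values over the genes of each fit, and calls needed one under 0.05 with a log2 fold change above 1 in size. The 20 libraries in 6 groups shared 1 fit for the pBTSC comparisons. All 47 symbols matched RefSeq's Sscrofa11.1 gene table, used for names and neighbours only, and CCL8 and CXCR2 were not analysed here. The values of 1 member and of 1 marker gene are not reported here, and counts over the members include that member. Values in every library are given for the members called in pBTSCs against CD45-/EpCAM+ cells with the 12 largest absolute fold changes, those with the 5 largest called in each other comparison, and CXCR4, CXCL12 and ACKR3. From each pathway list the 2 called genes with the largest rise and the 2 with the largest fall were to be named, and others named (DPP4, CCRL2, IL6, NFKB1, NFKBIA, TNFAIP3, ICAM1, VCAM1) were chosen after their values were seen. The members and lists were chosen with earlier results of these data known. Other pseudocounts, filters, scalings, weights, storage terms and left-out libraries were tried. The fit was checked on simulated data with independent libraries and no effect of the storage run. That check therefore cannot show how the fit behaves with the run effects of these data. Python 3.11.15, numpy 2.4.6, pandas 2.3.3, scipy 1.17.1 and matplotlib 3.10.9 were used for tables and plots.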

Additional observations from a re-analysis of the deposited data

Results flagged for a closer look

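CCL20 was 13.9 normalized counts in pBTSC library S20, farther from the other 4 pBTSC libraries than the 95% limit of Dixon's test for 5 samples. CCR1 was 56.6 in pBTSC library S11, below the other 4 by the same test. These were 2 of 63 groups of values tested, where chance gives about 1 in 20.

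The difference in CCL16 between pBTSCs and CD45+ cells was not the same in libraries with storage numbers under 15 and from 15 up. On the log2 scale it was -10.85 under 15 and -5.66 from 15 up, and the first minus the second was -5.19 (limma, adjusted p = 0.00385). The pBTSC libraries under 15 are those of H2B-GFP piglets and those from 15 up those of wild-type piglets, so line and storage number cannot be told apart. CCL16 was the 1 member called in this test, among 140 of 15334 genes.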

How the results depend on the processing

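Of 970 values of the named members under alternative settings, 875 kept their direction and side of the threshold, 67 fell out of the call and 28 entered it, and none reversed. Within storage numbers under 15, 25 members were called against CD45-/EpCAM- cells, and within those from 15 up 13 against CD31+ and CD146+ cells. Between liver S3 to S14 and S16 to S23, array weights gave 18 calls and 1 mean per storage run, an alternative chosen after seeing the data, gave 0. H2B-GFP against wild-type pBTSCs gave 5 calls with a pseudocount of 10 and 0 without the shallow libraries. Leaving out 1 library at a time gave 15 to 20 calls against CD45-/EpCAM+, 9 to 19 against CD45-/EpCAM-, 14 to 19 against CD45+ and 13 to 22 against CD31+ and CD146+ cells. It gave 0 to 6 calls between the liver runs and 0 to 4 between the lines, and 0 in each fit between liver sorts. With the storage run as a block, the 4 pBTSC comparisons gave 25, 20, 21 and 22 calls. The labels give no replicate numbers shared between groups, so pairing rested on the storage run alone. With that block, CD45+ against CD45-/EpCAM+ cells gave 0 calls, with 442 genes and 1 member at an unadjusted p under 0.05. In the cases named here the cause was not tested. S13, S15 and S22 limit what can be said of members at low counts.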
